A study of Mus musculus with 6 samples.

Results

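The genes described here build the hair shaft: 12 hair keratins (Krt31, Krt32, Krt33a, Krt33b, Krt34, Krt35, Krt36, Krt81, Krt82, Krt83, Krt84 and Krt86), the adhesion gene Dsg4 and 57 keratin-associated protein genes whose symbol starts with Krtap. The rule uses only symbols and finds 70 of the 35275 genes in the deposited tables, and the set was proposed with earlier results of these data known. The samples are 6 RNA-seq libraries of the epithelial region of mouse back skin. C57BL/6 mice of the genotypes IL-33 KO and WT gave 3 libraries each. IL-33 is a cytokine that epithelial cells keep in the nucleus and release on damage. Both genotypes had 0.25% DNFB (dinitrofluorobenzene, a contact allergen) in acetone and olive oil painted on the back 3 times a week for 22 days. All 6 libraries thus hold treated skin, and untreated skin was not analysed here. The labels used here give no age and no further detail of the deletion.

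A hair shaft forms when matrix cells at the base of a growing follicle move up and fill with keratin. Type I and type II hair keratins pair into filaments, and keratin-associated proteins pack between the filaments and cross-link them. Keratin 35 is among the first hair keratins made above the matrix. Keratins 32 and 82 belong to the cuticle, the outer scale layer of the shaft, and keratins 31, 33, 34, 81, 83 and 86 to the cortex, its bulk. Keratin-associated proteins are grouped by composition into cysteine-rich high-sulfur proteins and glycine-tyrosine proteins, and several cysteine-rich families are found in the cuticle. Follicles make these transcripts while they grow a hair, and hardly at rest.

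Total counts were 20459574 to 24359612 per library. Il33 had 11 to 22 counts in each IL-33 KO library and 2817 to 3906 in each WT library. The hair shaft genes took 1.77, 1.00 and 0.777 percent of all counts in IL-33 KO 1 to 3, and 0.377, 0.261 and 1.00 percent in WT 1 to 3. WT 3 stood apart from the other WT libraries and lay inside the IL-33 KO range. Sums, medians and the fold changes of the named keratins, Dsg4 and leading Krtap genes are also given without it. That choice was made on these same genes, so leaving WT 3 out widens most differences by construction. For most named genes the range over all single omissions is therefore given as well. In pieces of skin, fewer cells of a type and less RNA per cell cannot be told apart. The labels do not say that each library is a separate animal, so a p-value here reflects variation among 6 libraries that may be technical.

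Many members, but not all, share a promoter feature that the rule did not use. A promoter window in the RefSeq table (build GRCm38.p6) was used for 58 of the 70 genes. Dsg4 and the keratins Krt33a, Krt35, Krt81, Krt83 and Krt86 were not among them. The motif TATAAA, read on the coding strand and starting 20 to 40 bases before the gene start, was in 34 of these 58 windows (58.6%) and in 2.0% of all 32851 windows. It was in 3 of 7 keratin windows, 6 of 14 glycine-tyrosine windows and 15 of 23 high-sulfur windows. Within 250 bases and on either strand, TATAAA was in 79.3% of the members' windows and 12.4% of all. Either motif of the LEF/TCF type, CTTTGAA or CTTTGAT, on either strand, was in 24.1% against 7.5%. At least 1 of 8 motifs of the HOXC13 type (TTTATNAA, TTTATNAG, TTTATNGA, TTTATNGG, TTAATNAA, TTAATNAG, TTAATNGA and TTAATNGG, both strands, where N is any base) was in 55.2% against 17.2%. The HOXC13-type motifs can overlap TATAAA. Many of these genes are close copies, so their windows are not independent, and a match of letters is not a binding site.

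The 60 bases directly before the RefSeq start of 8 genes are shown because these genes carry the contrasts described below: shaft layers, large and small differences, and a pair of copies. They run 5′ to 3′ on the coding strand, with TATAAA in capitals.
Krt31: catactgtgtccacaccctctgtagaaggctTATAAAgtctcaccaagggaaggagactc
Krt32: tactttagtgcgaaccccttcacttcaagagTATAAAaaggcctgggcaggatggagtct
Krt84: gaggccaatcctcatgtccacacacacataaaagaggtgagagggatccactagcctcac
Krtap17-1: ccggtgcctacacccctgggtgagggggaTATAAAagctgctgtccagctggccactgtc
Krtap8-1: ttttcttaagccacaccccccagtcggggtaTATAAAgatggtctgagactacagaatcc
Krtap4-9: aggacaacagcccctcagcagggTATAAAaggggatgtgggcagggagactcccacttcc
Krtap31-1: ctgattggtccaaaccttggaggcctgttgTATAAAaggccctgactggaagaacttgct
Krtap31-2: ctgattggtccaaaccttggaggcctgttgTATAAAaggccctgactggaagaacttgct
In that order they lie at chr11:100050552-100050611 (minus strand), chr11:100088270-100088329 (minus strand), chr15:101532821-101532880 (minus strand), chr11:99993995-99994054 (minus strand), chr16:89487953-89488012 (minus strand), chr11:99785140-99785199 (plus strand), chr11:99907860-99907919 (plus strand) and chr11:99936231-99936290 (plus strand). Krt31, a cortex keratin with a large difference between genotypes, and Krtap4-9, a high-sulfur gene with a small one, both carry the motif. The RefSeq start of Krt32 lies 43 bases upstream of the deposited gene, and the other 7 stretches end where the deposited gene begins. Krt84 has no TATAAA in these 60 bases. The stretches of Krtap31-1 and Krtap31-2 are identical.

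The main comparison sets IL-33 KO against WT, both after DNFB. The low-count filter kept 68 of the 70 genes and left out Krtap13 and Krtap20-2. By edgeR's quasi-likelihood test with Benjamini-Hochberg adjustment, 0 of the 68 passed 0.05, while 0.0191% of the 15720 tested genes passed (0.0127% as higher). At an unadjusted p under 0.05, 25 of the 68 were higher and 0 lower, beside 4.87% and 4.15% of all tested genes. In DESeq2 Krt36 passed (adjusted p 0.0224) and no other member did, where 1.26% of genes passed (1.01% as higher). All 68 fitted log2 fold changes (IL-33 KO over WT) were above 0, from 0.36 to 2.43 with a median of 0.94. Of all tested genes 48% were above 0, with a median of -0.01. In 15 of the 68 every IL-33 KO library lay above every WT library and in 0 below, beside 7.46% and 6.47% of all tested genes (13.9% together).

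The number of genes without overlap changed when WT 3 or IL-33 KO 3 was left out. IL-33 KO 1 was the highest library for 63 of the 68 genes, WT 2 the lowest for 53 and WT 1 for 14. WT 3 was above IL-33 KO 3 for 55 of all 70. Without WT 3, 60 of 69 tested members had no overlap (background 18.2%) and the median log2 fold change was 1.72. WT 3 was set apart by its levels of these same genes, and was the highest WT library for 66 of all 70. A rise was thus built in, the background genes were not chosen that way, and the rise is no support. Without IL-33 KO 3, 37 of 69 had none (background 14.5%). IL-33 KO 3 was the lowest IL-33 KO library for 59 of all 70, so this rise was likewise built in and is no support. With 1 other library left out in turn (IL-33 KO 1, then IL-33 KO 2, then WT 1, then WT 2) there were 15 without overlap each time, beside backgrounds of 10.3%, 12%, 11.5% and 11.2%. The number stayed at 15 without IL-33 KO 1, but the median log2 fold change was then 0.56.

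No member passed in edgeR after any single omission. Of all tested genes, 0.0125%, 0.0628% and 0.0313% then passed for IL-33 KO 1 to 3 left out in turn, and 0.0124%, 0.0125% and 0.15% for WT 1 to 3. The member nearest to the threshold without WT 3 was Krtap17-1, with an adjusted p of 0.0549 and a log2 fold change of 2.24 ± 0.32 (SE). That p follows an omission chosen on these same genes and is no support.

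**Figure D1:**
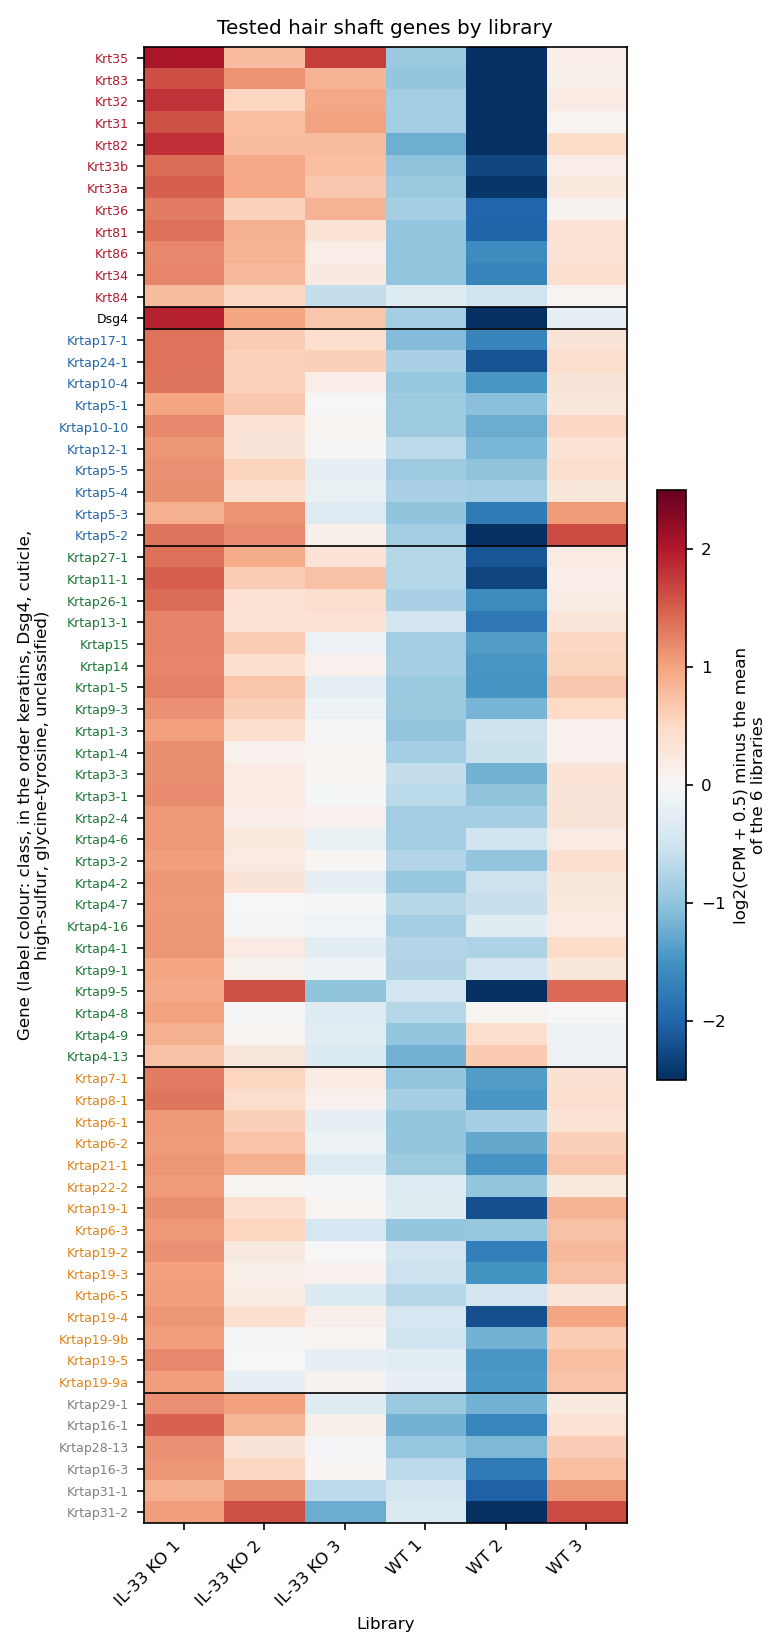
Level of each of the 68 tested genes (rows, grouped by class) in each library (columns), as log2(CPM + 0.5) minus the gene's mean over the 6 libraries. IL-33 KO 1 is highest for 63 genes and WT 2 lowest for 53, and WT 3 is the highest WT library in most rows.

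Of the keratins and the Krtap classes, keratins had the widest gap between genotypes. Their summed level was 3810.0, 2628 and 2132 CPM across IL-33 KO 1 to 3 against 732, 348 and 1731 CPM in WT 1 to 3 (CPM is the count per TMM-scaled library size). Each IL-33 KO sum was above each WT sum. The ratio of means was 3.05, or 5.29 without WT 3. Of the 12 keratins, 8 had no overlap, beside 7.46% of all tested genes. Their median log2 fold change was 1.77, or 2.59 without WT 3.

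Krt35 (ENSMUSG00000048013, chr11:100092193-100096241 in mm10), the type I keratin made early above the matrix, had the largest fitted difference of the set. It was at 249, 103 and 199 CPM across IL-33 KO 1 to 3 against 31.1, 3.93 and 67.2 CPM in WT 1 to 3. The groups did not overlap, and WT 2 held 12.6% of the WT 1 level. The log2 fold change was 2.43 ± 0.81 (SE; edgeR adjusted p 0.487), and 1.90 to 3.40 with 1 library left out, highest without WT 3.

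Both cuticle keratins showed the same order. Krt32, of type I, was at 61.5, 25.1 and 34.0 CPM across IL-33 KO 1 to 3 against 9.22, 2.31 and 19.8 CPM in WT 1 to 3, a log2 fold change of 1.94 ± 0.65 (SE). Krt82, of type II, was at 68.2, 32.4 and 32.9 CPM across IL-33 KO 1 to 3 against 7.76, 2.62 and 25.9 CPM in WT 1 to 3, or 1.87 ± 0.70. In each gene all IL-33 KO libraries were above all WT libraries, with edgeR adjusted p of 0.487 and 0.521. With 1 library left out the log2 fold changes were 1.46 to 2.81 and 1.40 to 3.11, highest without WT 3. Krt32 overlaps Gm11571, an antisense gene with at most 65 counts, and the sources used here do not state whether counting used strand.

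Among the cortex keratins, Krt83 was at 367, 261 and 216 CPM across IL-33 KO 1 to 3 against 60.6, 17.3 and 133 CPM in WT 1 to 3, a log2 fold change of 2.00 ± 0.61 (SE). Krt31 was at 314, 173 and 206 CPM across IL-33 KO 1 to 3 against 57.0, 17.2 and 108 CPM in WT 1 to 3 (1.93 ± 0.57). Krt33a and Krt33b, type I genes of the same chromosome 11 cluster, had log2 fold changes of 1.75 ± 0.58 and 1.79 ± 0.53. These 4 genes did not overlap between genotypes, and their edgeR adjusted p lay between 0.440 and 0.479. With 1 library left out their log2 fold changes were 1.54 to 2.85 for Krt83 and 1.49 to 2.64 for Krt31. They were 1.32 to 2.58 for Krt33a and 1.38 to 2.59 for Krt33b, and each was highest without WT 3.

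Krt34, Krt81 and Krt86, also of the cortex, overlapped. Krt34 was at 568, 431 and 285 CPM across IL-33 KO 1 to 3 against 123, 76.9 and 324 CPM in WT 1 to 3. Krt81 was at 575, 409 and 279 CPM across IL-33 KO 1 to 3 against 113, 54.9 and 284 CPM in WT 1 to 3, and Krt86 at 655, 516 and 321 CPM across IL-33 KO 1 to 3 against 144, 95.9 and 365 CPM in WT 1 to 3. In all 3 genes WT 3 lay above IL-33 KO 3, and WT 1 and WT 2 lay below every IL-33 KO library. Their log2 fold changes were 1.30 ± 0.50, 1.48 ± 0.55 and 1.30 ± 0.48 (SE; edgeR adjusted p 0.529, 0.516 and 0.519). They were 0.94 to 2.10, 1.09 to 2.32 and 0.97 to 2.05 with 1 library left out, highest without WT 3.

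Per length, Krt34 (192 FPKM over the 6 libraries), Krt86 (183) and Krt33a (169) were the keratins with the highest mean levels. Krt36 had the lowest, 5.56 FPKM. It was at 17.9, 10.6 and 13.1 CPM across IL-33 KO 1 to 3 against 3.73, 1.40 and 7.45 CPM in WT 1 to 3, and did not overlap. Its log2 fold change was 1.72 ± 0.51 (SE; edgeR adjusted p 0.440), and 1.30 to 2.45 with 1 library left out, highest without WT 3.

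Krt84, known mainly from tongue papillae, differed least among the keratins. It was at 33.8, 27.6 and 12.6 CPM across IL-33 KO 1 to 3 against 15.6, 13.5 and 20.2 CPM in WT 1 to 3. Every WT library lay above IL-33 KO 3, and WT 2 had 86.9% of the WT 1 level, where the other keratins had 12.6% to 66.8%. Its log2 fold change was 0.59 ± 0.34 (SE; edgeR adjusted p 0.623), beside 1.30 to 2.43 for the others. Without WT 3 it was 0.76, and over all single omissions 0.29 to 0.90. The oral and tongue keratins Krt4, Krt13 and Krt76 summed to at most 2.25 CPM in any library.

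Dsg4, desmoglein 4, joins keratin-filled cells of the shaft, and its loss makes hair brittle. It was at 55.0, 28.3 and 23.1 CPM across IL-33 KO 1 to 3 against 7.61, 2.01 and 12.2 CPM in WT 1 to 3. The lowest IL-33 KO library was above the highest WT library. The log2 fold change was 2.28 ± 0.58 (SE), with the smallest edgeR adjusted p of the set, 0.389. With 1 library left out the log2 fold change was 1.81 to 2.89, highest without WT 3.

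**Figure D2:**
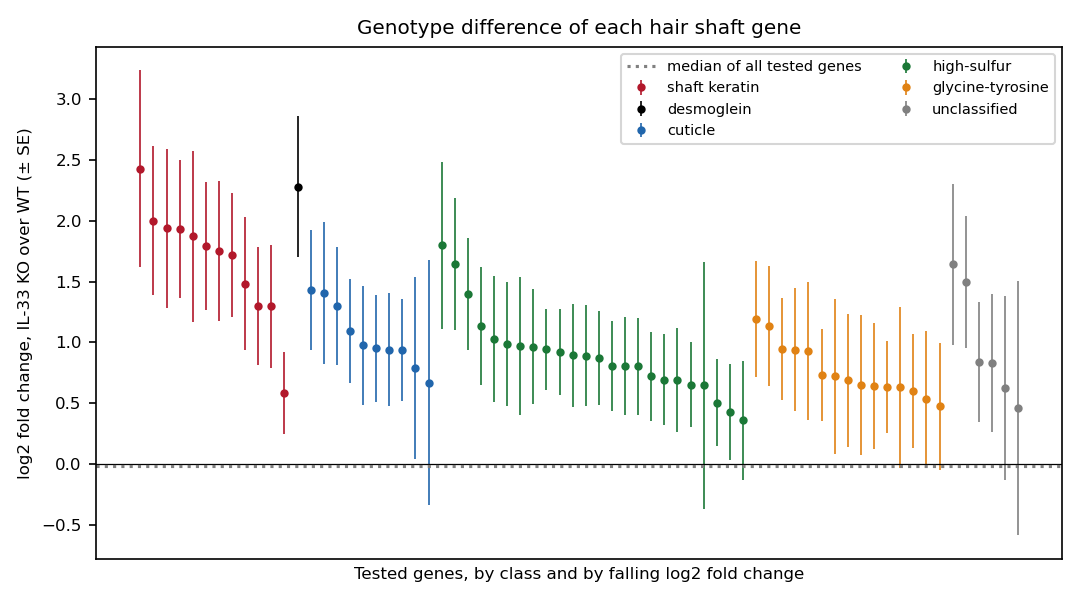
Log2 fold change of IL-33 KO over WT with its SE from edgeR for the 68 tested genes, by class. Keratins other than Krt84 lie between 1.30 and 2.43 and Krtap genes between 0.36 and 1.80.

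Krtap genes had smaller fitted differences than most keratins, and this contrast between gene groups was not tested. Their summed level was 12586, 7359.6 and 5536 CPM across IL-33 KO 1 to 3 against 3311, 2429 and 7816 CPM in WT 1 to 3. WT 3 was above IL-33 KO 2 and 3, and the ratio of means was 1.88, or 2.96 without WT 3. Of 55 tested Krtap genes 6 had no overlap (10.9%), near the 7.46% of all tested genes, so this count is no result about Krtap genes. The median log2 fold change was 0.87. Summed keratin CPM was 30.3, 35.7 and 38.5 percent of summed Krtap CPM for IL-33 KO 1 to 3 and 22.1, 14.3 and 22.2 percent for WT 1 to 3. This proportion did not overlap between genotypes, with WT 3 included, and is given as a description with no test.

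The cuticle class has 10 Krtap genes, of families 5, 10, 12, 17 and 24. Its sum was 421, 269.8 and 195 CPM across IL-33 KO 1 to 3 against 88.9, 62.3 and 250.5 CPM in WT 1 to 3, with WT 3 above IL-33 KO 3. The ratio of means was 2.20 (3.90 without WT 3) and the median log2 fold change 0.96 (1.89). Krtap17-1 (chr11:99993234-99993994), the most abundant, was at 133, 81.1 and 70.0 CPM across IL-33 KO 1 to 3 against 24.1, 16.1 and 65.1 CPM in WT 1 to 3, narrowly without overlap (log2 fold change 1.43 ± 0.49, SE; edgeR adjusted p 0.504). Krtap24-1 was the other without overlap, with a lowest IL-33 KO value of 17.8 CPM and a highest WT value of 16.2 CPM.

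The Krtap5, Krtap10 and Krtap12 genes overlapped. Krtap10-4 was at 47.7, 27.8 and 20.7 CPM across IL-33 KO 1 to 3 against 9.27, 6.38 and 23.3 CPM in WT 1 to 3, a log2 fold change of 1.30 ± 0.49 (SE). Krtap10-10, listed as a pseudogene, had 0.98 ± 0.49 and Krtap5-5 0.94 ± 0.46. Krtap5-2 was at 25.7, 23.2 and 10.8 CPM across IL-33 KO 1 to 3 against 5.24, 0.480 and 31.5 CPM in WT 1 to 3. WT 3 was its highest library and WT 2 held 9.17% of WT 1, so its log2 fold change of 0.67 ± 1.005 has an error larger than itself. With 1 library left out the log2 fold changes were 0.90 to 2.04 for Krtap10-4 and 0.56 to 1.74 for Krtap10-10. They were 0.55 to 1.58 for Krtap5-5 and 0.11 to 2.82 for Krtap5-2, and each was highest without WT 3.

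The high-sulfur class has 25 Krtap genes, most of them on chromosome 11. Its sum was 5467, 3211 and 2344 CPM across IL-33 KO 1 to 3 against 1362, 1193 and 3213 CPM in WT 1 to 3, with WT 3 close to IL-33 KO 2. The ratio of means was 1.91 (2.88 without WT 3), and the median log2 fold change of the 24 tested was 0.88 (1.38). Krtap15, the most abundant, was at 1061, 696 and 403 CPM across IL-33 KO 1 to 3 against 244, 169.8 and 644 CPM in WT 1 to 3 (log2 fold change 1.03 ± 0.52, SE; edgeR adjusted p 0.596). The deposited span of Krtap14 overlaps that of Krtap15 on the opposite strand, and whether their exons overlap was not checked. Krtap14 had 0.99 ± 0.51, and its reads may not be told apart from those of Krtap15. Krtap1-5 and Krtap3-1 had 0.97 ± 0.57 and 0.89 ± 0.42, and in both WT 3 was above IL-33 KO 3. With 1 library left out the log2 fold changes were 0.64 to 1.80 for Krtap15 and 0.59 to 1.77 for Krtap14. They were 0.59 to 1.87 for Krtap1-5 and 0.43 to 1.39 for Krtap3-1, and each was highest without WT 3.

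Of the 24 tested high-sulfur genes 4 had no overlap (16.7%), beside 7.46% of all tested genes. These were Krtap11-1, Krtap13-1, Krtap26-1 and Krtap27-1, all on chromosome 16. Krtap11-1 was at 287, 158 and 171 CPM across IL-33 KO 1 to 3 against 62.0, 20.4 and 115 CPM in WT 1 to 3, a log2 fold change of 1.64 ± 0.54 (SE; edgeR adjusted p 0.481). Krtap27-1 had the highest of all Krtap genes, 1.80 ± 0.69, at 7.67, 5.53 and 3.48 CPM across IL-33 KO 1 to 3 against 1.41, 0.218 and 3.11 CPM in WT 1 to 3. Krtap24-1, Krtap26-1, Krtap27-1 and Krtap13-1 are the first 4 members by position on chromosome 16, between 88610709 and 88729609 (mm10). All 4 had no overlap, with log2 fold changes of 1.14 to 1.80. Margins were narrow for Krtap13-1 (lowest IL-33 KO value 52.0 CPM, highest WT value 50.4 CPM) and Krtap27-1 (3.48 and 3.11 CPM). The other 19 tested members there, from 88818667 to 89571183, had a median of 0.73, and 1 of them, Krtap11-1 at the far end, had no overlap. Without WT 3, Krtap11-1 had 2.32 and Krtap27-1 2.80, and over all single omissions Krtap27-1 had 1.28 to 2.80. This grouping by position was seen after the values were known and was not tested.

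WT 2 was above WT 1 for 14 of the 68 tested genes, 7 of them in the Krtap4 family of 8 high-sulfur genes. The other 7 were Krtap1-3, Krtap1-4, Krtap2-4, Krtap9-1, Krtap6-1, Krtap6-3 and Krtap6-5. In the Krtap4 family WT 2 was at 97.8% to 415% of WT 1, with a median of 140.3%, while over all 68 tested genes the median was 66.8%. Krtap4-9 was at 59.5, 33.1 and 26.1 CPM across IL-33 KO 1 to 3 against 15.97, 43.2 and 28.9 CPM in WT 1 to 3, with WT 2 as its second highest library. Krtap4-13, the tested gene with the lowest log2 fold change (0.36 ± 0.49, SE), was at 9.57, 6.87 and 4.26 CPM across IL-33 KO 1 to 3 against 2.17, 8.996 and 4.93 CPM in WT 1 to 3. The family made up 16.9% of summed Krtap CPM in WT 2 and 8.14% to 9.32% in the other 5 libraries. In GENCODE M21 transcripts, 81.3% of the 50-base windows of Krtap4-13 also occur in other genes, so its count is uncertain. That share was 17.5% for Krtap4-9 and 0% for Krtap4-16, where WT 2 had 147% of WT 1.

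**Figure D3:**
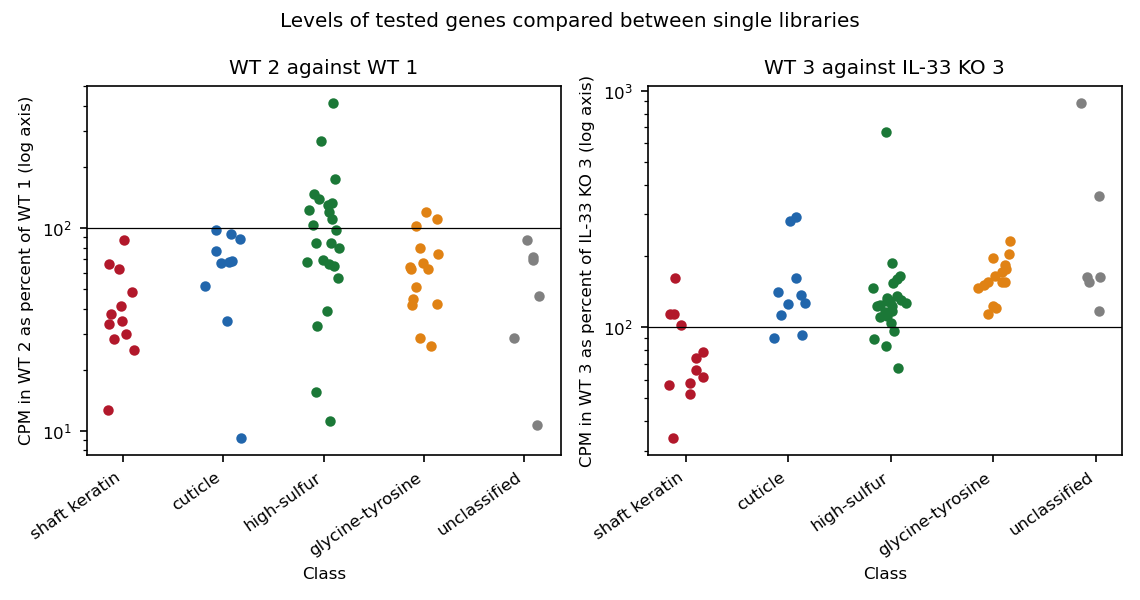
CPM of each tested gene in WT 2 as a percent of WT 1 and in WT 3 as a percent of IL-33 KO 3, by class, on log axes with a line at 100%. In WT 2 against WT 1 keratins lie between 12.6% and 86.9%, and 11 of 24 high-sulfur genes lie above 100%.

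Glycine-tyrosine genes, 16 in all and each on chromosome 16, had the highest levels per length. Krtap8-1 (1189 FPKM over the 6 libraries) and Krtap7-1 (934 FPKM) ranked first and second of the 70. The class took 51.5% to 59.7% of the members' summed FPKM in each library. Its sum was 6013, 3417 and 2686 CPM across IL-33 KO 1 to 3 against 1675, 1077 and 3839.8 CPM in WT 1 to 3. WT 3 was above IL-33 KO 2 and 3, and the ratio of means was 1.84 (2.93 without WT 3).

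The median log2 fold change of the 15 tested was 0.69. Of these 15 genes 0 were without overlap, where 7.46% of all tested genes were higher without overlap, so this count does not set the class apart. Krtap8-1 (chr16:89487374-89487952) was at 1407, 754 and 603 CPM across IL-33 KO 1 to 3 against 315, 204 and 737 CPM in WT 1 to 3, or 1.14 ± 0.49 (SE; edgeR adjusted p 0.554). Krtap7-1 was at 1136, 679 and 539 CPM across IL-33 KO 1 to 3 against 239, 178 and 613 CPM in WT 1 to 3 and had the highest of the class, 1.19 ± 0.48. Neither shares a 50-base window with another gene. In the Krtap19 family of 7 genes log2 fold changes were 0.47 to 0.72, and WT 2 had 26.1% to 62.6% of WT 1. Krtap19-9a, lowest of the class at 0.47 ± 0.52, was at 182, 75.3 and 92.5 CPM across IL-33 KO 1 to 3 against 76.2, 32.0 and 143 CPM in WT 1 to 3. Krtap22-2 had 0.73 ± 0.38 and Krtap19-3 0.64 ± 0.52. With 1 library left out the log2 fold changes were 0.69 to 1.83 for Krtap8-1, 0.83 to 1.91 for Krtap7-1 and -0.00039 to 1.11 for Krtap19-9a. They were 0.28 to 1.07 for Krtap22-2 and 0.26 to 1.44 for Krtap19-3. Each was highest without WT 3, where Krtap20-2 also entered the test, at -0.79.

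**Figure D4:**
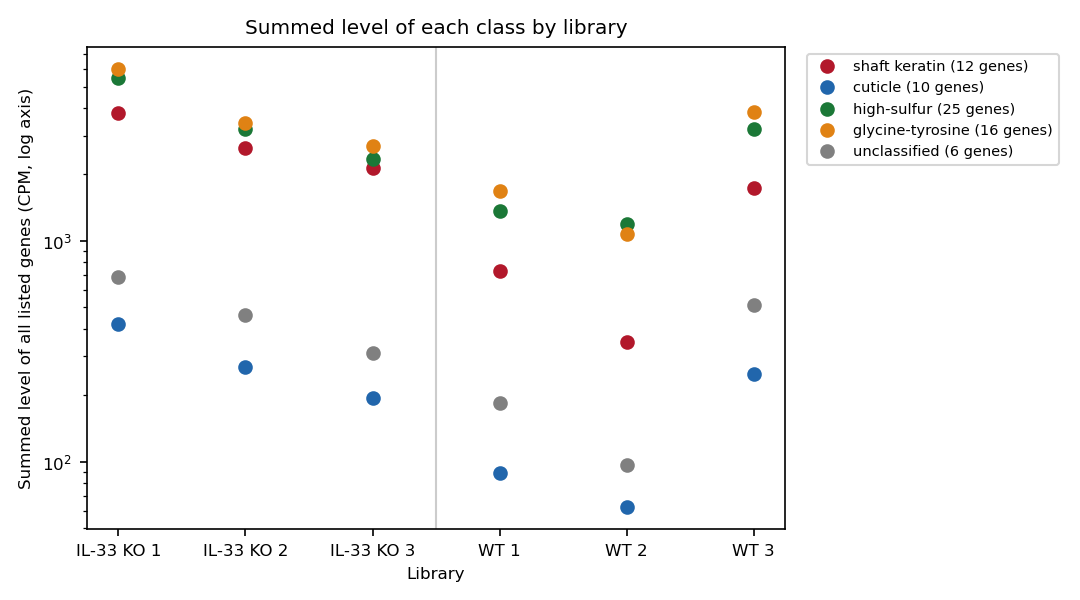
Summed level of the genes of each class (CPM, log axis) in each library. For keratins the lowest IL-33 KO sum, 2132 CPM, is above the highest WT sum, 1731 CPM, whereas in each Krtap class WT 3 lies above IL-33 KO 3.

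Families 16, 28, 29 and 31 were left unclassified, since no protein sequences were used here. Krtap16-1 on chromosome 11 was at 75.7, 48.2 and 29.5 CPM across IL-33 KO 1 to 3 against 11.5, 8.30 and 34.5 CPM in WT 1 to 3, a log2 fold change of 1.496 ± 0.54 (SE). Krtap16-3 on chromosome 16 had 0.83 ± 0.57, Krtap28-13 on chromosome 1 0.84 ± 0.49 and Krtap29-1 1.64 ± 0.66, the last at no more than 3.75 CPM. Krtap31-1 (0.63 ± 0.76) and Krtap31-2 (0.46 ± 1.05), whose upstream stretches are identical, share 39.5% and 41.5% of their windows with other genes, mainly each other. Krtap31-2 was at 11.6, 17.1 and 1.98 CPM across IL-33 KO 1 to 3 against 4.08, 0.437 and 17.6 CPM in WT 1 to 3. IL-33 KO 2 and WT 3 were the highest libraries for both, and also for Krtap5-3 and Krtap9-5. Without WT 3 the log2 fold changes of the 6 unclassified genes were 1.62 to 2.68. Over all single omissions their lowest values ran from -0.13 for Krtap31-2 to 1.27 for Krtap29-1. Of the genes with too few counts to test, Krtap13 had 0 to 4 counts per library and Krtap20-2 had 4 to 25, highest in WT 2.

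Shared sequence limits single values. Of the 70 genes, 20 share no 50-base window with a transcript of another gene, 19 share under 10%, 28 share 10% to 50% and 3 share 50% or more. Krt81 and Krt86 share 37.7% and 43.3% of their windows, mainly with each other, as do Krt31 and Krt34 (28.1% and 33.1%). With the counts of each Krtap family summed, 0 families, keratins or Dsg4 passed in edgeR, where 0.0319% of rows did.

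Other genes of the follicle were compared from lists. Of 17 regulators of shaft formation, 0 passed in the main edgeR fit, 15 had a fold change above 0 and 10 had no overlap, beside 7.46% of all tested genes. Lef1, a transcription factor of the Wnt pathway, was at 29.2, 11.8 and 23.7 CPM across IL-33 KO 1 to 3 against 4.74, 1.22 and 6.78 CPM in WT 1 to 3 (log2 fold change 2.34 ± 0.56, SE). Hoxc13, a homeobox activator of hair keratin genes, was at 79.2, 40.4 and 60.8 CPM across IL-33 KO 1 to 3 against 25.4, 31.2 and 33.2 CPM in WT 1 to 3 (1.005 ± 0.24). The regulators with the smallest p were Dlx3 (1.41 ± 0.23; edgeR adjusted p 0.182) and Gata3 (0.76 ± 0.16; 0.302). With no low-count filter Dlx3 passed in edgeR (adjusted p 0.0247) and Gata3 did not (0.102). Of 11 other shaft genes found by symbol, 0 passed, 6 were above 0 and 3 had no overlap. Padi3, which modifies arginines in hair proteins, had 1.96 ± 0.44 and Selenbp1 0.97 ± 0.21 (edgeR adjusted p 0.329 and 0.314). In DESeq2 7 of 17 regulators passed, all higher (Dlx3, Gata3, Hoxc13, Foxn1, Foxe1, Msx1 and Msx2), and 2 of 11 other shaft genes did (Padi3 and Selenbp1), where 1.26% of all genes passed. Krt85 was not analysed here.

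The inner root sheath, the layer that moulds the growing shaft, did not overlap between genotypes. Its list summed to 21372, 10678 and 9999 CPM across IL-33 KO 1 to 3 against 3630.4, 2729 and 5696 CPM in WT 1 to 3. Of its 10 genes 0 passed in the main edgeR fit. All 10 were above 0 and 9 were higher without overlap, beside 48% and 7.46% of all tested genes. The smallest p were those of Krt72 (2.19 ± 0.29, SE; adjusted p 0.125) and Krt28 (2.29 ± 0.41; 0.202). Krt72 passed in edgeR without WT 3 (adjusted p 0.0404). That omission was chosen on hair shaft levels, and WT 3 was also the highest WT library for Krt72. It held 139 CPM there, against 82.6 CPM in WT 1 and 75.5 CPM in WT 2. The pass without WT 3 is therefore no support. With all libraries kept and no low-count filter, Krt72 and Krt28 passed in edgeR (adjusted p 0.00528 and 0.0247), where 33 of all genes passed. In DESeq2 7 of 10 passed, all higher (Krt25, Krt26, Krt27, Krt28, Krt71, Krt72 and Tchh), where 1.26% of all genes passed. Krtap CPM per inner root sheath CPM was 0.589, 0.689 and 0.554 for IL-33 KO 1 to 3 and 0.912, 0.890 and 1.37 for WT 1 to 3. Keratin CPM per inner root sheath CPM was 0.178, 0.246 and 0.213 for the former and 0.202, 0.128 and 0.304 for the latter. The Krtap ratio was thus higher in every WT library, and the keratin ratio overlapped. Neither ratio was tested.

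Markers of other cells also differed between libraries. The interfollicular epidermis list summed to 29636 to 50167 CPM in the IL-33 KO group against 41402 to 70951 CPM in WT, with 1 of 9 genes above 0, and WT 3 had the lowest WT sum. Melanocyte genes (8 of 8 above 0) summed to 161 to 320.4 CPM in the IL-33 KO group against 87.6 to 166 CPM in WT. Adipocyte genes (8 of 8) summed to 759 to 1065 CPM in the IL-33 KO group against 172 to 808 CPM in WT. Skeletal muscle genes (6 of 6 tested) summed to 12.7 to 285 CPM in the IL-33 KO group against 9.11 to 9.96 CPM in WT, highest in IL-33 KO 3. Fibroblast genes (1 of 7) summed to 11946 to 13991 CPM in the IL-33 KO group against 12746 to 22836 CPM in WT, highest in WT 3. The list of outer root sheath and companion layer genes (6 of 10) summed to 18828 to 29862 CPM in the IL-33 KO group against 22339 to 44733 CPM in WT. In WT 1, Krt6a, Krt6b and Krt16 held most of this sum, at 14485, 15057 and 10941.5 CPM. Sebaceous gland genes (4 of 8) were at 1621 to 2861 CPM in the IL-33 KO group against 992 to 3141 CPM in WT, leukocyte genes (3 of 8) at 1154 to 1754 CPM in the IL-33 KO group against 1214 to 4155 CPM in WT and proliferation genes (1 of 8) at 694 to 876 CPM in the IL-33 KO group against 715 to 855 CPM in WT. In the main edgeR fit 0 of these markers passed. In DESeq2 7 of 8 muscle genes (Acta1, Ckm, Myh1, Myh4, Tnnt3, Ryr1 and Atp2a1) and 3 of 8 melanocyte genes (Pmel, Mlana and Slc45a2) passed. Of the 10 outer root sheath and companion layer genes 1 passed (Krt75), and 0 passed in the other lists of this paragraph, where 1.26% of all genes passed. The part of these differences in the hair shaft values was not tested.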

How the data were processed

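The authors deposited read counts per gene and FPKM values for 6 libraries. STAR, RSEM and mm10 are named in the submitters' processing notes; versions, strand and the handling of reads that match several genes are not given in the sources used here. The deposited FPKM follow from the counts, gene length and column total (largest relative difference 2.78e-07). Libraries were grouped by their labels, at 20459574 to 24359612 counts each.

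Counts were tested with edgeR 4.0.16 in R 4.3.3: filterByExpr (15720 genes kept), TMM, quasi-likelihood F test, two-sided, Benjamini-Hochberg adjustment over all tested genes, threshold 0.05. The SE of a log2 fold change was derived from the F statistic. The test was checked on simulated counts in which every gene had the same relative spread. The check does not cover genes with a wider spread, such as Krt35. DESeq2 1.42.0, limma 3.58.1 (voom, and log2(FPKM + 1) or log2(FPKM + 0.1)), other size factors and filters, a replicate block and omission of each library were alternatives. Medians, sums and counts without overlap carry no test.

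Krtap families 5, 10, 12, 17 and 24 were called cuticle, 1 to 4, 9, 11, 13 to 15, 23 and 25 to 27 high-sulfur, and 6 to 8 and 18 to 22 glycine-tyrosine, from textbook knowledge. Named genes were all keratins and Dsg4; per Krtap class the 4 with the highest mean CPM and both extremes of fold change; and per follicle list up to 4 genes past the threshold, or failing that the lowest 2 by p. Lef1, Hoxc13 and other Krtap genes named were chosen after their values were seen. Members and lists were chosen with earlier results of these data known. Promoter windows are from RefSeq (GRCm38.p6) and transcripts from GENCODE M21. Figures were drawn with matplotlib 3.10.9.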

Additional observations from a re-analysis of the deposited data

How the results depend on the processing

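Among hair shaft genes 0 passed in edgeR with any size factor, filter or omitted library run, in limma or with Krtap families summed, and 1 (Krt36) passed in DESeq2. Across omitted libraries the number of members without overlap was 15 to 60 and the median log2 fold change 0.56 to 1.72, highest without WT 3. Across the other settings they were 14 to 15 and 0.94 to 1.20. Of 779 values for 41 named genes, 764 kept their direction and side of the threshold. The direction turned for Krtap19-9a (-0.00039 to 1.11 across omitted libraries, below 0 without IL-33 KO 1), Krtap31-2 (-0.13 to 2.20, below 0 without IL-33 KO 2 or WT 2) and Krtap4-13 (-0.0090 to 0.95, below 0 without WT 1). The log2 ratio of class sums stayed above 0 in all settings run. With 1 library omitted it was 1.21 to 2.40 for keratins, 0.79 to 1.96 for cuticle, 0.53 to 1.52 for high-sulfur, 0.47 to 1.55 for glycine-tyrosine and 0.48 to 1.79 for unclassified genes. The number of all genes that passed was 3 in edgeR, 33 with no filter, 5 with upper quartile factors, total counts or a CPM filter, 233 in DESeq2, 11 with voom and 11 to 22 on log2 FPKM. The 33 with no filter included Krt72, Krt28 and Dlx3 of the follicle lists. Omitting WT 3 gave 24 genes past the threshold, omitting IL-33 KO 2 gave 10, and for IL-33 KO 3 the number was 5. The causes were not tested. With the replicate number as a block, 0 members and 2 genes in all passed and the median was 1.16. Same-numbered libraries did not deviate together (r of -0.31, -0.13 and -0.43 across genes, which are not independent) and none correlated best with its own number, so they were not treated as pairs.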
